A study of Homo sapiens with 27 samples.

Results

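The genes described here are 9 factors that mark spliced mRNAs and destroy faulty ones: UPF1, UPF2, UPF3A, UPF3B, SMG1 and SMG5 of nonsense-mediated decay, and MAGOH, RBM8A and CASC3 of the exon junction complex. Every transcript whose identifier, without its version, belongs to 1 of these 9 symbols in the GENCODE release 44 annotation was taken. This gave 61 transcripts of the 93530 identifiers with a count, and 9 of the 18776 genes to which 86362 of those identifiers could be matched. The study tested UMIs built from blocks of 3 identical bases as a way to correct PCR and sequencing errors, and the libraries used here are its full-length nanopore mRNA libraries of RM82 cells. RM82 is an established human Ewing sarcoma cell line. In the treated group, 3 libraries came from cells exposed for 24 h to SGC-CLK-1, a chemical inhibitor of CDC-like kinases, and in the control group 3 libraries came from cells given the solvent DMSO. Both groups shared the parental line and the medium, and the labels name no genetic change in either. The study describes its experiments in general as independently repeated, but the labels do not say whether these libraries came from separate cultures, so p-values measure the spread between libraries, part of which may be technical.

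Nonsense-mediated decay removes mRNAs on which translation stops too early. When introns are spliced out, the exon junction complex (EIF4A3, MAGOH, RBM8A and CASC3) is left upstream of each junction, and a complex that stays downstream of a stop codon recruits UPF3B and UPF2, which activate the helicase UPF1. SMG1 is the kinase that phosphorylates UPF1, and SMG5 is 1 of the proteins that bind phosphorylated UPF1 and bring in decay enzymes. CDC-like kinases phosphorylate SR proteins, which direct splice site choice, so the comparison asks how transcripts differed when that kinase activity was inhibited.

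The deposited values were counts of UMIs per transcript. SGC-CLK-1 replicates 1, 2 and 3 held 666702, 362826 and 373004 counts, and DMSO replicates 1, 2 and 3 held 416352, 523456 and 372876. SGC-CLK-1 replicate 1 was thus the deepest library. The 61 member transcripts took 0.1242%, 0.0921% and 0.089% of the counts in the SGC-CLK-1 libraries and 0.1086%, 0.1039% and 0.129% in the DMSO libraries, so that the groups overlapped. Levels are given below as CPM, a transcript's count divided by the library's total and multiplied by 1000000, not divided by transcript length, and are compared between libraries but not between genes. Since 1 molecule can be counted on several transcripts that share its sequence, transcripts of 1 gene are not independent, and a gene sum is not a number of molecules.

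The cells' label was checked against markers. Of 9 Ewing sarcoma markers, 7 were analysed here, among them the surface protein CD99 (93.7 to 174 CPM), CCND1 (451 to 684 CPM) and EWSR1 (113 to 277 CPM), and NKX2-2 and FLI1 were not. CCND1 had a mean of 479 CPM with SGC-CLK-1 and 621 CPM with DMSO (log2 fold change -0.45, adjusted p = 0.32 in edgeR). EWSR1 lay the other way, at 239 and 155 CPM (0.55, adjusted p = 0.32 in edgeR). The groups of both did not overlap, as for 19.9% of all genes tested. NR0B1 and LIPI, targets of the fusion protein of these tumours, were low, at 1 to 6 and 0 to 11 counts a library. Of 7 markers of fibroblasts, blood cells and epithelium, 6 were analysed here, which together made 120, 110 and 134 CPM in SGC-CLK-1 replicates 1 to 3 and 84.1, 138 and 105 CPM in DMSO replicates 1 to 3. DCN, a matrix proteoglycan of fibroblasts, had the most counts over the 6 libraries, at 14.4 to 80.4 CPM. The other fibroblast genes COL1A1 and COL1A2 had at most 5 counts in any library. The epithelial genes KRT8 and EPCAM had 18.8 to 68.8 CPM and a count of 0 in 5 of 6 libraries, and the blood cell gene PTPRC had 3 to 12 counts a library. Their part in the results below was not tested.

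Of the 9 gene sums, 6 held enough counts to be tested (UPF2, UPF3A, UPF3B, SMG1, RBM8A and CASC3), and none of the 6 passed an adjusted p of 0.05 in edgeR (quasi-likelihood test, Benjamini-Hochberg adjustment over 6344 genes), where 15 genes (0.236%) passed. DESeq2 called none of the 5 to which it gave an adjusted p. In edgeR, 1 of the 6, SMG1, had an unadjusted p under 0.05, as had 13.9% of all genes tested. In DESeq2 2 of the 6 had, but its share over all genes is not given here, so nothing is read from that count. SMG1 was also the only one of the 6 whose groups did not overlap, which 19.9% of all genes tested shared. Log2 fold changes of SGC-CLK-1 against DMSO were below 0 for 4 genes and above 0 for 2, with a median of -0.30, beside 0 over all genes tested. In these bulk libraries fewer cells with a transcript and less of it per cell cannot be told apart.

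**Figure D1:**
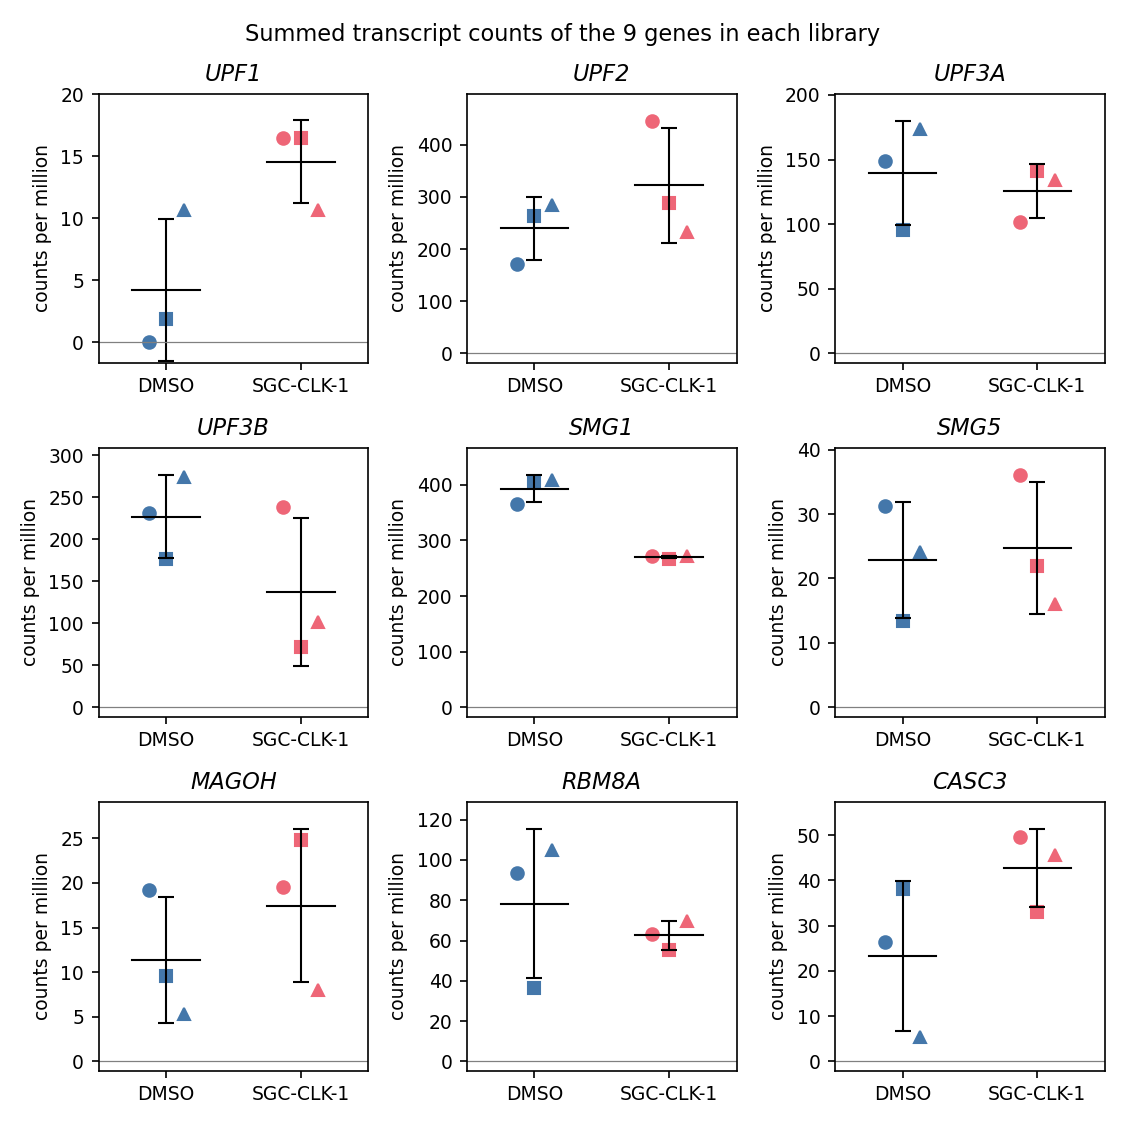
Summed CPM (y axis) of the 9 genes in the 3 DMSO libraries (blue) and the 3 SGC-CLK-1 libraries (red); circles, squares and triangles are replicates 1, 2 and 3, and the black line and bar are the mean and SD (n = 3). SMG1 sits between 267 and 271 CPM with SGC-CLK-1 and between 365 and 408 CPM with DMSO, whereas the groups of the other 8 genes overlap.

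SMG1, the kinase that acts on UPF1, had the smallest p of the 6. Its sum stood at 271, 267 and 271 CPM (181, 97 and 101 counts) in SGC-CLK-1 replicates 1 to 3 and at 365, 405 and 408 CPM (152, 212 and 152 counts) in DMSO replicates 1 to 3. All 3 treated libraries lay below all 3 controls, and the means were 270 ± 2.21 and 393 ± 23.8 CPM (SD, n = 3). With a log2 fold change of -0.62 (SE 0.19, 95% confidence interval -1.03 to -0.20), SMG1 had an adjusted p of 0.15 in edgeR's test. Of its 15 transcripts with counts, 5 annotated as retained intron summed to 165, 154 and 182 CPM with SGC-CLK-1 and to 269, 313 and 303 CPM with DMSO. Those annotated as protein coding, 8 in number, summed to 102, 110 and 88.5 CPM and to 91.3, 89.8 and 102 CPM, with a log2 fold change of 0.04 (SE 0.26, interval -0.51 to 0.60, adjusted p = 0.96 in edgeR). Thus the groups were apart for the first class and overlapped for the other.

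The transcript with most SMG1 counts was SMG1-214 (ENST00000568239), annotated as retained intron. It has 2 exons over 2978 bases and lies at chr16:18875947-18879661 on the minus strand (GRCh38), inside SMG1, whose gene spans chr16:18804860-18926408. Its first exon keeps intron 11 of the 63-exon protein-coding transcript SMG1-201, an intron of 2262 bases at chr16:18877233-18879494 that begins with GT and ends with AG. The next transcript by mean CPM, SMG1-216 (ENST00000569764), is also annotated as retained intron, has 4187 bases at chr16:18856338-18861487 and keeps introns 27 (374 bases, chr16:18859182-18859555) and 28 (731 bases, chr16:18858291-18859021). Both transcripts also run on into intron sequence beside these introns, which SMG1-201 lacks too. The ends of the 3 introns are shown because an unspliced read across them matches these transcripts and not SMG1-201. Each line below has 30 bases from the GENCODE transcript sequences, with 10 exon bases in capitals and 20 intron bases in lower case, 5′ to 3′ on the minus strand.
SMG1 intron 11, start (chr16:18879475-18879504): ACTCACGCTGgtatgtgaattattcttttc
SMG1 intron 11, end (chr16:18877223-18877252): taaaaattttattcttttagATTGTTGAAC
SMG1 intron 27, start (chr16:18859536-18859565): CTATAACTGAgtaagtttactcttacggag
SMG1 intron 27, end (chr16:18859172-18859201): cagtaaatattttgtttcagAAATGTGGTA
SMG1 intron 28, start (chr16:18859002-18859031): TTCAACAGAGgtctgtatatttttacaagc
SMG1 intron 28, end (chr16:18858281-18858310): ttttggtttttctctggcagGACTGTCTTA

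**Figure D2:**
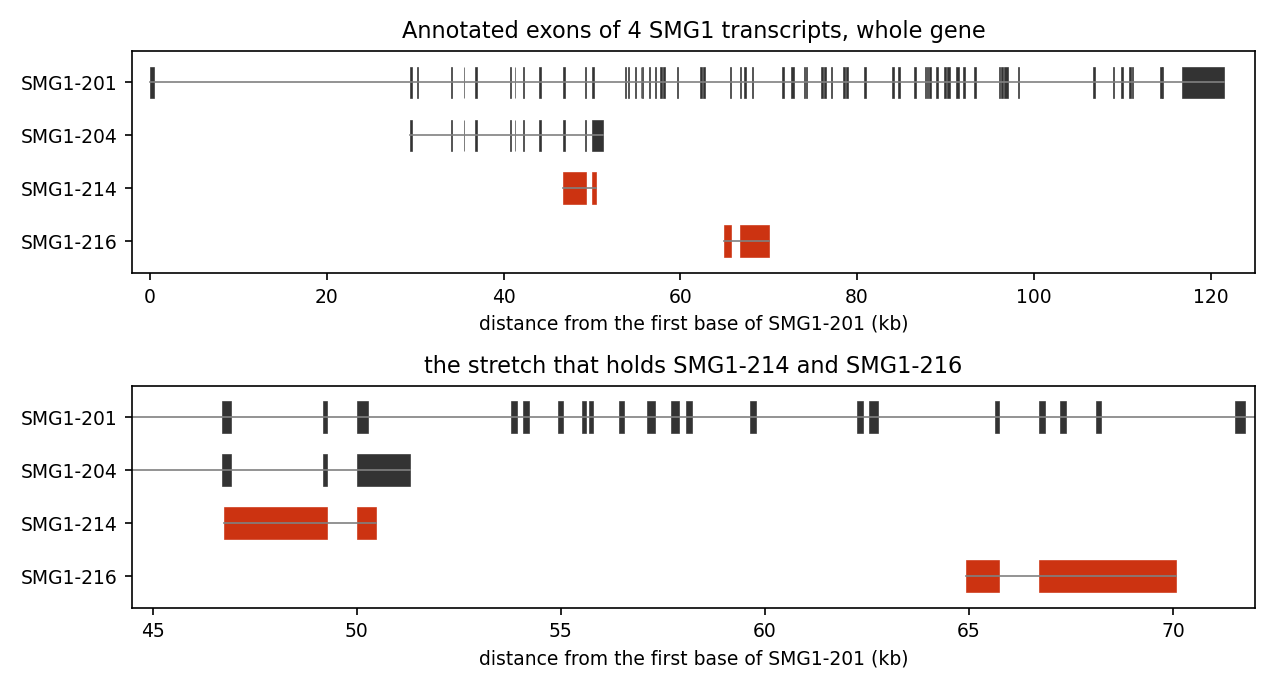
Annotated exons (boxes) of SMG1-201, SMG1-204, SMG1-214 and SMG1-216 by distance from the first base of SMG1-201 in kb (x axis), over the whole gene and enlarged; red marks the transcripts annotated as retained intron. The red boxes run across gaps between exons of SMG1-201.

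SMG1-214 fell with SGC-CLK-1. The treated replicates 1 to 3 had 117, 105 and 155 CPM (78, 38 and 58 counts) against 214, 246 and 236 CPM (89, 129 and 88 counts) in DMSO replicates 1 to 3. The highest treated library lay below the lowest control. The log2 fold change was -0.88 (SE 0.22), a level 0.543 of that in DMSO, with an adjusted p of 0.021 in edgeR's test over 7840 transcripts and of 0.029 in DESeq2. SMG1-214 was the 1 transcript called among the 13 member transcripts tested, and over all those tested 310 (3.95%) were called, 165 lower (2.1%) and 145 higher (1.85%). Among the 645 tested transcripts annotated as retained intron, 33 (5.12%) were called lower and 10 (1.55%) higher. The adjusted p of SMG1-214 was 0.075 without SGC-CLK-1 replicate 1, 0.19 without SGC-CLK-1 replicate 2 and 0.063 without DMSO replicate 1, with log2 fold changes of -0.81, -0.76 and -0.93.

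SMG1-216 lay lower too, without passing. It had 39, 41.3 and 26.8 CPM with SGC-CLK-1 and 55.2, 66.9 and 64.4 CPM with DMSO, and the groups did not overlap, as for 23% of all transcripts tested. Its log2 fold change was -0.77 (SE 0.30), with an adjusted p of 0.15 in edgeR's test. The full-length SMG1-201 had 27, 38.6 and 26.8 CPM against 21.6, 24.8 and 26.8 CPM (log2 fold change 0.31, SE 0.37, adjusted p = 0.71 in edgeR, and 0.17 without SGC-CLK-1 replicate 2), on 9 to 18 counts a library. The fourth tested transcript of the gene, SMG1-204, an 11-exon protein-coding form shown for completeness after its values were seen, had a log2 fold change of -0.22 (SE 0.33, adjusted p = 0.79 in edgeR).

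**Figure D3:**
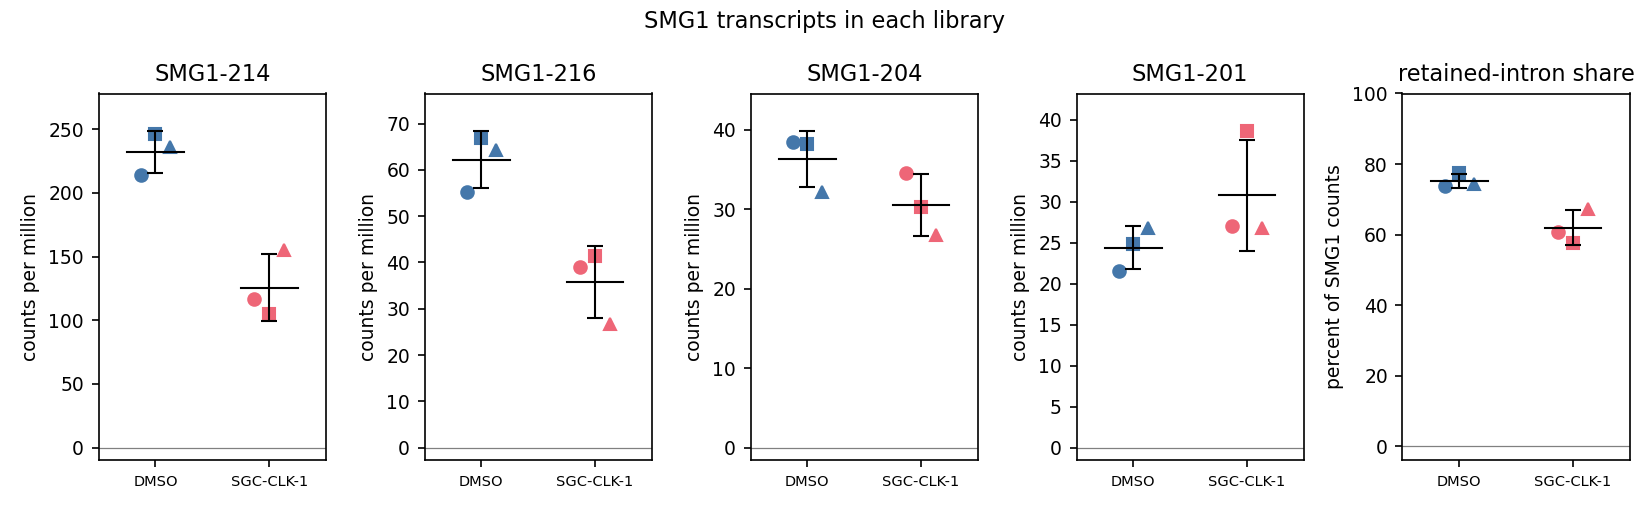
CPM (y axis) of the 4 tested SMG1 transcripts and, in the last panel, the percent of all SMG1 counts that fell on transcripts annotated as retained intron, in the 3 DMSO (blue) and 3 SGC-CLK-1 libraries (red); markers are replicates, and the black line and bar are the mean and SD (n = 3). SMG1-214, SMG1-216 and the share are lower in every SGC-CLK-1 library, whereas SMG1-204 and SMG1-201 overlap.

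The make-up of SMG1 was then compared with its level set aside. The 5 SMG1 transcripts annotated as retained intron held 60.8%, 57.7% and 67.3% of the gene's counts in replicates 1 to 3 with SGC-CLK-1, against 73.7%, 77.4% and 74.3% with DMSO. The means were 61.9% ± 4.9 and 75.1% ± 1.96 (SD, n = 3), the groups did not overlap, and a two-sided exact permutation test gave p = 0.1, the smallest that 3 against 3 allows. Over the 3737 tested genes with such a transcript and a count in every library, 11.6% had shares that did not overlap, 5.22% lower and 6.34% higher with SGC-CLK-1, and the median difference was 0.208 percentage points. In edgeR's test of transcript usage, which 5 of 1805 genes (0.277%) passed, neither SMG1 nor any of its 4 tested transcripts passed adjustment (adjusted p = 1). SMG1 as a gene (Simes test) and SMG1-201 (usage log2 fold change 0.68) had an unadjusted p under 0.05, as had 1.72% of genes and 1.41% of single transcripts tested. The usage tests of UPF2, UPF3A and UPF3B also gave an adjusted p of 1. The share of SMG1-214 alone was 43.1%, 39.2% and 57.4% with SGC-CLK-1 and 58.6%, 60.8% and 57.9% with DMSO (exact permutation p = 0.1), and the share of the most abundant transcript did not overlap in 11.7% of 5926 genes with a count in every library. Its lowest control stood only just above its highest treated library.

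SMG1 has many partial copies on chromosome 16 whose transcripts share long stretches with it, and reads of these could be assigned to either. In a BLAST search against all GENCODE transcripts (matches of at least 250 bases and 90% identity), SMG1-201 matched 747 other genes, 8 of them named SMG1P. The longest match was of 4272 bases in SMG1P3 at 96.7% identity. The shorter SMG1-204 matched 13 other genes, also with 8 named SMG1P, so 747 is not a number of SMG1 copies. SMG1-214 matched 10 other genes, 7 of them named SMG1P. No match began before its base 2429, the last base of intron 11, and intron 11 by itself matched no annotated transcript of another gene. SMG1-216 matched 52 other genes, 7 of them named SMG1P, with matches between its bases 437 and 4187, the longest of 576 bases at 96.9% identity. Of its introns, 27 matched no other gene and 28 matched 3. The search covered annotated transcripts and not genomic sequence, so intron copies that no annotated transcript keeps would be missed. Whether unspliced reads of such copies were counted on these transcripts was not tested. Of the SMG1P genes, SMG1P7 (ENSG00000291263) had a log2 fold change of -0.04 (SE 0.41, adjusted p = 0.98 in edgeR). The rest had too few counts to be tested. SMG1P1, named after its values were seen, had 39, 16.5 and 21.4 CPM with SGC-CLK-1 against 9.61, 13.4 and 13.4 CPM with DMSO. SMG1P5 (ENSG00000183604) had 18, 24.8 and 16.1 against 12, 9.55 and 5.36 CPM. The groups of both did not overlap, as for 19.9% of all genes tested. The share among genes too low to be tested, as these are, is not given here. SMG1P2, SMG1P3, SMG1P4, SMG1P6 and a second SMG1P5 (ENSG00000291266) had higher means with SGC-CLK-1 but overlapped. A second SMG1P7 (ENSG00000261556) had a mean of 2.31 against 3.82 CPM. SMG1-216 holds a run of 17 A from base 4171 of its 4187 bases, and the longest run of A in SMG1-214 is 9 bases. Whether priming inside such runs contributed to these counts was not tested.

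The helicase UPF1 was scarcely counted. Its sum was 11, 6 and 4 counts in SGC-CLK-1 replicates 1 to 3 and 0, 1 and 4 counts in DMSO replicates 1 to 3, too few for the test across genes. In CPM these were 16.5, 16.5 and 10.7 against 0, 1.91 and 10.7, and the count of 0 in DMSO replicate 1 allows a level of up to 7.21 CPM (3 counts, counting error only). The groups met at their lowest treated and highest control library (two-sided exact permutation p = 0.2). Of 17 annotated UPF1 transcripts 4 had counts, and UPF1-201 and UPF1-207, both protein coding, had the same counts in every library (3, 2 and 1 with SGC-CLK-1, 0, 0 and 1 with DMSO). The other 2 are annotated as retained intron and held 5, 2 and 2 against 0, 1 and 2 counts.

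UPF2, which bridges UPF1 and UPF3B, was counted 71 to 297 times in a library. Its sum was 445, 289 and 233 CPM in SGC-CLK-1 replicates 1 to 3 and 171, 264 and 284 CPM in DMSO replicates 1 to 3. SGC-CLK-1 replicate 1 stood above all others, replicate 2 just above the highest control, and replicate 3 among the controls. The log2 fold change of 0.37 (SE 0.28, interval -0.22 to 0.96, adjusted p = 0.61 in edgeR) was 0.03 without SGC-CLK-1 replicate 1 and 0.15 without DMSO replicate 1. The gene's 4 transcripts were all tested, and UPF2-202 (5168 bases) had the smallest p, with a log2 fold change of 0.56 (SE 0.27, adjusted p = 0.27 in edgeR). UPF2-201, the next by mean CPM, had 0.35 (SE 0.27). Without SGC-CLK-1 replicate 1 they had 0.17 (adjusted p = 0.82 in edgeR) and 0.10, and without DMSO replicate 1 UPF2-201 had 0.17. The counts of UPF2-201 and UPF2-203 differed by at most 2 in any library, and the 2-exon UPF2-204 of 640 bases lies wholly within the sequence of UPF2-203. UPF2-201 and UPF2-202 differed by up to 31 counts in a library. The share of UPF2-202 in the gene ran from 31.4% to 34.3% with SGC-CLK-1 and from 29% to 33.8% with DMSO.

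UPF3A and UPF3B are a pair of related proteins that tie the exon junction complex to UPF2. UPF3B stood at 238, 71.7 and 102 CPM (159, 26 and 38 counts) in SGC-CLK-1 replicates 1 to 3 and at 231, 176 and 274 CPM (96, 92 and 102 counts) in DMSO replicates 1 to 3. SGC-CLK-1 replicates 2 and 3 lay below every control, and replicate 1 lay among them. UPF3B's log2 fold change was -0.74 (SE 0.36, interval -1.50 to 0.03, adjusted p = 0.39 in edgeR), -0.80 (adjusted p = 0.31 in edgeR) over its protein-coding transcripts, -1.47 without SGC-CLK-1 replicate 1 and -0.45 (adjusted p = 0.73 in edgeR) without SGC-CLK-1 replicate 2. Its protein-coding transcripts UPF3B-202 and UPF3B-201 had log2 fold changes of -0.66 (SE 0.31) and -0.72 (SE 0.32), with adjusted p of 0.26 and 0.23 in edgeR. Both passed without SGC-CLK-1 replicate 1, at -1.37 (adjusted p = 0.029) and -1.47 (adjusted p = 0.024) in edgeR, where 212 of 8442 transcripts were called. Without SGC-CLK-1 replicate 2 they stood at -0.36 (adjusted p = 0.70) and -0.39 (adjusted p = 0.67). Their counts are nearly the same, so these are not separate observations.

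The UPF3B forms differ mainly by 1 exon of 39 bases, exon 8 of UPF3B-201 at chrX:119840646-119840684 on the minus strand (GRCh38), whose length is a multiple of 3. The exon is shown because it is the main sequence that could tell the transcripts apart, with the exon in capitals between 10 bases of each neighbouring exon.
UPF3B-201 exon 8: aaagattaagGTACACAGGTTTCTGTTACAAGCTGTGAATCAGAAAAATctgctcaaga
The files did not separate them. In SGC-CLK-1 replicates 1 to 3 UPF3B-201 had 67, 9 and 18 counts and UPF3B-202 had 69, 11 and 18, and in DMSO replicates 1 to 3 both had 45, 41 and 48. With a largest difference of 2 counts, less than sampling would give for separate molecules (chi-square 0.195 on 5 degrees of freedom), the values of the exon-containing and exon-lacking forms are 1 measurement, and nothing can be read from them about the use of this exon.

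UPF3A had 102, 141 and 134 CPM with SGC-CLK-1 and 149, 95.5 and 174 CPM with DMSO. The groups overlapped, with a log2 fold change of -0.23 (SE 0.28, interval -0.84 to 0.37, adjusted p = 0.78 in edgeR) that was -0.02 without DMSO replicate 3, -0.11 without SGC-CLK-1 replicate 1 and -0.46 without DMSO replicate 2. All 12 annotated UPF3A transcripts had counts. The first by mean CPM were UPF3A-202 (log2 fold change -0.46, SE 0.36) and UPF3A-201 (-0.17, SE 0.38), which lacks the 99-base exon 4 of UPF3A-202 at chr13:114286302-114286400 on the plus strand. Leaving out 1 library gave -0.23 (without DMSO replicate 3) to -0.68 (without DMSO replicate 2) for UPF3A-202, and for UPF3A-201 -0.03 without SGC-CLK-1 replicate 1, -0.06 without DMSO replicate 3 and -0.28 without DMSO replicate 2. Their counts differed by up to 7 in a library, again less than sampling would give for separate molecules (chi-square 0.804 on 5 degrees of freedom). The share of UPF3A-202 was 23.5%, 19.6% and 22% with SGC-CLK-1 and 24.2%, 28% and 29.2% with DMSO (exact permutation p = 0.1, the smallest possible), without overlap, as for 11.7% of 5926 genes. The exon that could tell them apart is shown in capitals.
UPF3A-202 exon 4: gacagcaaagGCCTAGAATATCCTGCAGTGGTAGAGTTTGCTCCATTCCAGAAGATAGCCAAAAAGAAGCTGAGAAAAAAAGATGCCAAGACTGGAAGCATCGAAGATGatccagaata
The retained-intron share of UPF3A lay the other way from that of SMG1, at 11.8%, 17.6% and 18% with SGC-CLK-1 and 8.06%, 8% and 7.69% with DMSO, again without overlap (exact permutation p = 0.1). It rested on 8, 9 and 9 counts against 5, 4 and 5. Of the 5 member genes in that comparison, these were the 2 whose shares did not overlap, beside 11.6% of the 3737 genes (6.34% higher with SGC-CLK-1), and in UPF3B, RBM8A and CASC3 they did.

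SMG5 was represented almost wholly by its 22-exon protein-coding transcript SMG5-201. The gene's sum was 36, 22 and 16.1 CPM with SGC-CLK-1 and 31.2, 13.4 and 24.1 CPM with DMSO, on 6 to 24 counts a library, and it was not tested across genes. The groups overlapped (two-sided exact permutation p = 0.8). SMG5-201 held 95.8%, 100% and 100% of its counts with SGC-CLK-1 and 100%, 100% and 77.8% with DMSO. The next transcript, SMG5-202, had 1 count in all.

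Among the exon junction proteins, MAGOH and RBM8A (also called Y14) form a heterodimer that locks EIF4A3 onto RNA. RBM8A had 63, 55.1 and 69.7 CPM with SGC-CLK-1 and 93.7, 36.3 and 105 CPM with DMSO. DMSO replicate 2 lay below and the other controls above all treated libraries. The log2 fold change was -0.37 (SE 0.38, interval -1.18 to 0.44, adjusted p = 0.73 in edgeR) and was -0.74 without DMSO replicate 2, -0.24 without DMSO replicate 1 and -0.08 without DMSO replicate 3. RBM8A-204 had -0.38 (SE 0.34, adjusted p = 0.61 in edgeR), with -0.74 without DMSO replicate 2, -0.16 without DMSO replicate 1, -0.21 without DMSO replicate 3 and -0.23 without SGC-CLK-1 replicate 2. RBM8A-201, a shorter form of 796 bases at 19.3 to 24.1 CPM with SGC-CLK-1 and 7.64 to 32.2 CPM with DMSO, was not tested. RBM8A-201 matches RBM8B over 525 bases at 98.1% identity, and RBM8A-204 shares 528 identical bases with the overlapping gene GNRHR2, so reads of these genes may not be told apart.

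MAGOH was counted 13, 9 and 3 times with SGC-CLK-1 and 8, 5 and 2 times with DMSO, or 19.5, 24.8 and 8.04 CPM against 19.2, 9.55 and 5.36 CPM. The groups overlapped (two-sided exact permutation p = 0.4). MAGOH-202, the main form, had 7, 3 and 2 against 3, 3 and 1 counts, and MAGOH-203 had 1, 3 and 0 against 2, 0 and 1. MAGOH-202 matches MAGOH2P over 437 bases at 94.3% identity, but MAGOH2P itself had at most 4 counts in a library. The paralog MAGOHB, whose protein takes the same place in the complex, had 76.5, 91 and 48.3 CPM against 120, 103 and 59 CPM (log2 fold change -0.46, SE 0.33, adjusted p = 0.59 in edgeR).

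CASC3, which joins the core on spliced mRNA in the cytoplasm, had 49.5, 33.1 and 45.6 CPM (33, 12 and 17 counts) with SGC-CLK-1 and 26.4, 38.2 and 5.36 CPM (11, 20 and 2 counts) with DMSO. DMSO replicate 3 was far below the others, and DMSO replicate 2 lay within the treated range. The log2 fold change of 0.76 (SE 0.52, interval -0.35 to 1.87, adjusted p = 0.56 in edgeR) was 0.35 without DMSO replicate 3 and 1.33 without DMSO replicate 2. CASC3-201, the 14-exon protein-coding form, had 21, 16.5 and 18.8 CPM (14, 6 and 7 counts) against 14.4, 15.3 and 2.68 CPM (6, 8 and 1 counts). Its groups did not overlap, as for 23% of all transcripts tested, but it was itself too low to be tested. The share among transcripts as low as CASC3-201 is not given here. CASC3-202, a retained-intron form, had 15, 16.5 and 10.7 CPM against 9.61, 11.5 and 2.68 CPM. The 5 retained-intron transcripts held 49.5% ± 2.27 of the gene's counts with SGC-CLK-1 and 48.5% ± 2.62 with DMSO (SD, n = 3).

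**Figure D4:**
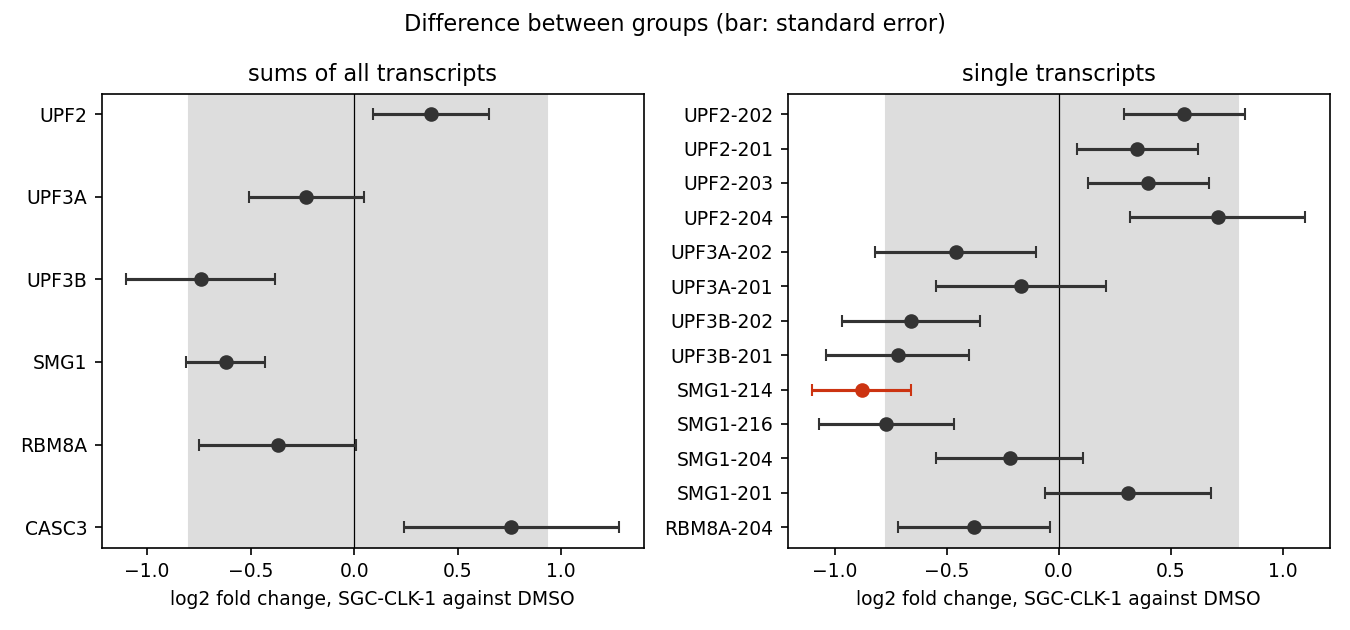
Log2 fold change of SGC-CLK-1 against DMSO (x axis; bars are standard errors from edgeR) of the 6 tested gene sums and the 13 tested transcripts; the grey band spans the 5th to 95th percentile of all genes or transcripts tested, and red marks an adjusted p under 0.05. SMG1-214 is the 1 red point, and the UPF2 transcripts lie on the opposite side of 0 from those of UPF3B.

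Over the 13 tested member transcripts, 8 had log2 fold changes below 0 and 5 above, with a median of -0.22 beside -0.01 over all transcripts. Besides SMG1-214, 4 had an unadjusted p under 0.05 (SMG1-216, UPF3B-201, UPF3B-202 and UPF2-202), making 5 of 13, beside 18% of all transcripts tested. Since UPF3B-201 and UPF3B-202 are 1 measurement, these are fewer than 5 separate observations. By class, 10 of the 13 were protein coding (median -0.19, none called by edgeR or DESeq2, 3 with an unadjusted p under 0.05) and 2 retained intron (median -0.83).

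Of the other genes of the pathway, 13 of 18 further decay factors were tested, 4 with log2 fold changes below 0 and 9 above (median 0.40). None passed in edgeR or DESeq2, and none had an unadjusted p under 0.05 in either. The smallest p belonged to GSPT1, the release factor eRF3a, at 244, 220 and 370 CPM with SGC-CLK-1 against 192, 216 and 177 CPM with DMSO (log2 fold change 0.43, SE 0.24, adjusted p = 0.45 in edgeR). The endonuclease SMG6 was too low to be tested, at 28.5, 16.5 and 2.68 CPM against 24, 15.3 and 24.1 CPM. The treated and control libraries of SMG6 overlapped.

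Of 11 further exon junction factors 9 were tested, 5 below 0 and 4 above (median -0.19), with none called by edgeR or DESeq2. The core helicase EIF4A3 had 121, 66.1 and 32.2 CPM with SGC-CLK-1 and 55.2, 45.8 and 37.5 CPM with DMSO (log2 fold change 0.64, SE 0.42, adjusted p = 0.54 in edgeR). The treated libraries of EIF4A3 lay on both sides of the controls. ALYREF, an mRNA export adaptor, was the 1 gene with an unadjusted p under 0.05 in edgeR (none in DESeq2), at 72, 63.4 and 91.2 CPM against 43.2, 32.5 and 42.9 CPM (log2 fold change 0.86, SE 0.33, adjusted p = 0.26). The groups of ALYREF did not overlap, as for 19.9% of all genes tested. An unadjusted p under 0.05 in edgeR was found for 13.9% of all genes tested.

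Genes known as targets of the decay made the last list, and whether decay or transcription set their levels was not tested. Of 11, 7 were analysed here and 3 could be tested, none called by edgeR and 2 with an unadjusted p under 0.05, beside 13.9% of all genes tested. DDIT3, a stress transcription factor, had 19.5, 11 and 24.1 CPM with SGC-CLK-1 and 48, 66.9 and 69.7 CPM with DMSO (log2 fold change -1.80, SE 0.42, adjusted p = 0.075 in edgeR), and DESeq2 called it (-1.83, adjusted p = 0.041) among 107 genes in all. ATF4, which drives DDIT3 transcription, had 81, 68.9 and 29.5 CPM against 178, 93.6 and 123 CPM (-1.16, SE 0.36, adjusted p = 0.15 in edgeR). Neither gene's groups overlapped, as for 19.9% of all genes tested. TBL2 had 0.32 (SE 0.60, adjusted p = 0.86 in edgeR), and GAS5, SNHG1, SNHG12 and ZFAS1 were not analysed here.

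**Figure D5:**
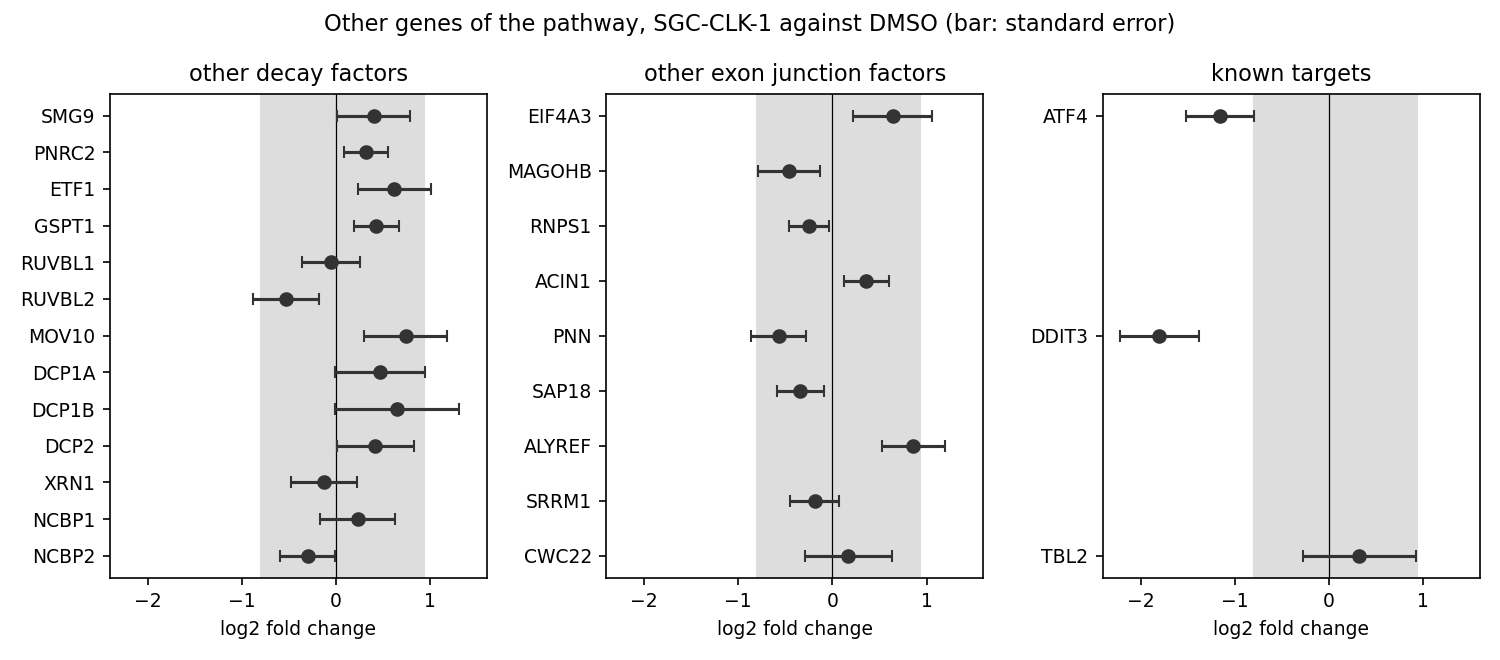
Log2 fold change of SGC-CLK-1 against DMSO (x axis; bars are standard errors from edgeR) of the tested genes of 3 lists beside the 9 members; the grey band spans the 5th to 95th percentile of all genes tested. DDIT3 and ATF4, at -1.80 and -1.16, lie outside the band, and no gene has an adjusted p under 0.05 in edgeR.

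The genes whose sums followed SMG1 most closely over the 6 libraries were DNAJB6, a co-chaperone (Pearson r 0.999), CCDC88A, an actin-binding protein (r 0.997), and RPSA, a ribosomal protein (r 0.994). Each shares the split between the groups, which by itself sets much of r, and 143 of 6343 genes had r over 0.9 with SMG1. CCDC88A had 480, 469 and 499 CPM with SGC-CLK-1 and 785, 871 and 928 CPM with DMSO (log2 fold change -0.91, adjusted p = 0.053 in edgeR). DNAJB6 had -0.80 (adjusted p = 0.11 in edgeR) and RPSA -0.69 (adjusted p = 0.12 in edgeR).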

How the data were processed

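Members and lists were chosen with earlier results of these data known, and some genes of the lists are not reported here. Per the labels and the methods, cDNA with UMIs at both ends was sequenced on PromethION flow cells, reads were aligned with minimap2 (2.22 in the submitters' processing notes) to Ensembl transcripts of hg38, and UMIs were deduplicated. The deposited values are UMI counts per transcript. Whether UMI-tools or the homotrimer method made them is not given in the sources used here. Identifiers were joined to GENCODE release 44, so 6.58% to 7.5% of counts per library had no match and entered no gene sum.

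Counts were summed per gene. Features were kept by filterByExpr (minimum count 10, total 15), scaled by TMM and tested with edgeR 4.0.16 (R 4.3.3), quasi-likelihood F-test without covariates, and usage with diffSpliceDGE. DESeq2 1.42.0, other scalings and filters, left-out libraries and a replicate block were alternatives. The scripts were tested on simulated data. Library pairs within a group were distinct (chi-square per degree of freedom 2.75 to 5.02). Named transcripts were the 2 with the highest mean CPM per gene and any with an unadjusted p under 0.05. Intervals cover counting error and library spread only. Sequences came from GENCODE transcripts, and matches from BLAST 2.17.0.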

Additional observations from a re-analysis of the deposited data

How the results depend on the processing

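The 6 tested member sums and the named transcripts that could be tested kept their direction under every alternative that gave them a value, except the sum of SMG1, whose log2 fold change over protein-coding transcripts only was 0.04 (adjusted p = 0.96). With its most abundant transcript, SMG1-214, in place of the sum, SMG1 passed (-0.91, adjusted p = 0.012, over 3688 genes). These are the counts of SMG1-214 again and not a further result. No other member sum passed in any alternative. SMG1-214 passed in 8 of 12 alternatives, with log2 fold changes from -1.02 to -0.76 and adjusted p from 0.009 to 0.19. It did not pass with no filter on low counts (adjusted p = 0.059, over 93530 transcripts) or in 3 of 6 leave-one-out fits. The cause was not tested.

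Over all genes, the 15 calls became 28 with scaling by library size only, 169 with no filter, 64 with at least 10 counts in every library, 107 by DESeq2 and 147 with the most abundant transcript of each gene, and leaving out 1 library gave 1 to 21. The 310 transcripts became 162 with no filter, 173 with at least 10 counts in every library, 113 by DESeq2 and 81 to 363 without 1 library. Genes with changed usage, 5, became 2 with no filter, 1 with at least 10 counts in every library and 1 to 5 without 1 library.

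Deviations of same-numbered libraries correlated at r of 0.0639, 0.0243 and 0.0313, and those of differently numbered libraries at -0.0735 to 0.0358. Whether replicate numbers pair the libraries cannot be told from values this small. With a replicate block 36 genes, 427 transcripts and 4 genes for usage were called, and SMG1-214 had an adjusted p of 0.009.

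At 362826 to 666702 counts a library, UPF1, SMG5 and MAGOH were too low for a test, and the widest interval of the other sums, that of CASC3, ran from -0.35 to 1.87.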
